A study of Mus musculus with 17 samples.

Results

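Of the 15062 genes in the count table, 8 are described here: immediate-early and related genes of the transcription factor activator protein 1 (AP-1). They were listed by symbol, and all 8 were in the table. They are the FOS class (Fos, Fosb, Fosl1 and Fosl2), the JUN class (Jun, Junb and Jund) and Atf3, a relative from the ATF family. The RNA came from C2C12 cells, a mouse myoblast line, cultured in DMEM with 10% fetal bovine serum. Lines expressed pMSCV (the empty vector), SRF (serum response factor, a transcription factor), or 1 of 4 SRF fusions, SRF-RELA, SRF-PDGFRB, SRF-ICA1L and SRF-FOXO1. There were 17 libraries, numbered 1 to 3 within each group except SRF-PDGFRB, which had numbers 1 and 2. The labels do not say whether a line was 1 clone or a pool, when serum was last changed, or whether the replicates were separate cultures. A p-value here therefore measures only the spread between these libraries, which may be technical.

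AP-1 is a set of dimers built from proteins with a basic region and a leucine zipper. JUN proteins can pair with each other or with FOS proteins, FOS proteins need a JUN partner, and the dimers bind short DNA elements such as TGACTCA. Fos, Fosb, Junb and Atf3 are classic immediate-early genes, transcribed within minutes of contact with serum, growth factors or stress without new protein synthesis, and their transcripts are short-lived. The Fos gene is also a textbook target of SRF, which binds its serum response element together with ternary complex factors, and in myoblasts AP-1 proteins are known for opposing differentiation.

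In the GENCODE M21 annotation of GRCm38 the FOS class lies on separate chromosomes, with Fos at chr12:85473890-85477273, Fosb at chr7:19302696-19310051, Fosl1 at chr19:5447547-5455946 and Fosl2 at chr5:32135801-32157842. In the JUN class Junb at chr8:84974484-84978718 and Jund at chr8:70698949-70700616 share a chromosome, with Jun at chr4:95049034-95052222, and the ATF gene is Atf3 at chr1:191170296-191218039.

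The sequences just upstream of an annotated start of 5 of the genes are shown because the results turn on how far these genes moved together. They are taken from RefSeq on GRCm38.p6, where 7 of the 8 genes had an entry (Fosl1 had none). For Atf3 the RefSeq start used lies inside the gene's GENCODE span given above, so that stretch is not upstream of the whole gene. Each is 150 bases, 5′ to 3′ on the gene's strand, ending at the base before the annotated start, or 6 bases earlier for Fosb and 7 for Atf3 so as to stay clear of annotated exons. Capitals mark matches to the motifs searched.
Fos (chr12:85473740-85473889, plus strand): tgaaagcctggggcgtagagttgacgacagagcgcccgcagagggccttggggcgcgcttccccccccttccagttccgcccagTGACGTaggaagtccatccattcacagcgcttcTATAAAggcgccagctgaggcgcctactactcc
Fosb (chr7:19310052-19310201, minus strand): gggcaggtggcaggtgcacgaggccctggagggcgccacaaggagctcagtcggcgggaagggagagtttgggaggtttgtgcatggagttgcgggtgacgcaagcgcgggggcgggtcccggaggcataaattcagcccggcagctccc
Junb (chr8:84978749-84978898, minus strand): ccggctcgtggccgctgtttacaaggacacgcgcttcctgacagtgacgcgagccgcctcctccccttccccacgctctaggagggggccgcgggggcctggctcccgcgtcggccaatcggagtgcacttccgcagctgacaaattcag
Jun (chr4:95052223-95052372, minus strand): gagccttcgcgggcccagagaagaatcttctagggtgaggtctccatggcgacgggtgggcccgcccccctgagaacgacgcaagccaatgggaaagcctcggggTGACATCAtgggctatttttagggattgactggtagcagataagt
Atf3 (chr1:191183341-191183490, minus strand): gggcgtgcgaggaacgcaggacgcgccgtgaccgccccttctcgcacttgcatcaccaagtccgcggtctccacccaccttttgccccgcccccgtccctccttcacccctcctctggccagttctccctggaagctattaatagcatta

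Both strands of the 250 bases before each start were searched for TGACTCA (the AP-1 site), TGACATCA, TGACGTCA (the cAMP response element, CRE), its first part TGACGT, the TATA box letters TATAAA, and the CArG box, which SRF binds. The Fos window held TGACGT 66 to 61 bases and TATAAA 33 to 28 bases before the start. Jun held TGACATCA 45 to 38 bases before its start. Atf3 held TGACGT on the opposite strand 8 to 3 bases before the RefSeq start used here, which lies inside its GENCODE span. None of the 7 windows held TGACTCA, the full TGACGTCA or a CArG box. Bases further upstream were not searched. The search therefore does not show whether Fos has its serum response element beyond this window. Over all 32817 windows of this length, TGACTCA was present in 4.46%, TGACATCA in 2.93%, TGACGTCA in 1.55%, TGACGT (which is also part of TGACGTCA) in 6.46%, TATAAA in 12.4% and the CArG box in 1.47%. A match is only a description of these letters, and binding was not measured.

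Library totals ran from 20901442 to 23543734 counts. Levels are given as CPM, each count relative to its library's total after TMM scaling, which evens out composition between libraries. Libraries of the same group differed from one another by 29.0 to 186 times what sampling noise gives (chi-square over its degrees of freedom in 16 pairs), so none was counted as a duplicate. Srf itself was higher in SRF than in pMSCV (log2 fold change 3.79, SE 0.38, edgeR adjusted p = 0.00158). It stood at 66.6, 93.8 and 83.4 CPM in pMSCV, 105, 84.1 and 71.8 CPM in SRF-FOXO1, and 70.5 and 81.4 CPM in SRF-PDGFRB. In SRF-ICA1L it was at 279, 176 and 121 CPM, and in SRF-RELA at 155, 137 and 85.0 CPM. Counts per gene do not separate the cells' own Srf from introduced sequence. They therefore do not show whether, or how strongly, a line expressed its fusion. Of 10 markers of leukocytes, endothelium, epithelium, fat and glia, 3 were in the table, and their summed level was 3.54 to 8.33 CPM. The myoblast markers Myod1, Myf5, Des, Cdh15, Pax7 and Msc were all in the table. In bulk RNA, fewer cells expressing a gene and less RNA per cell cannot be told apart.

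The FOS class split into 2 members with enormous swings and 2 with modest ones. Fos, the founding member of the class, was at 159, 562 and 1.45 CPM in pMSCV replicates 1, 2 and 3, and at 388, 221 and 1.002 CPM in SRF. It was at 5.14, 361 and 4.64 CPM in SRF-FOXO1, and at 305, 223 and 3.43 CPM in SRF-ICA1L. It was at 186 and 2.71 CPM in SRF-PDGFRB, and at 600, 569 and 1.73 CPM in SRF-RELA. Every group therefore had at least 1 high and at least 1 low library, and all 6 groups overlapped. In the 7 low libraries Fos lay at 5.14 CPM or less, and in the other 10 at 159 CPM or more, a gap of 30.9-fold with no library inside it. The low libraries were the 5 numbered 3, SRF-FOXO1 replicate 1 and SRF-PDGFRB replicate 2. Their Fos counts, 23 in SRF replicate 3 to 118 in SRF-FOXO1 replicate 1, were above the floor of a few reads.

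Fosb, the closest relative of Fos, divided the libraries in the same way. It was at 188, 1314 and 3.51 CPM in pMSCV, and at 467, 455 and 3.70 CPM in SRF. It was at 0.915, 490 and 1.29 CPM in SRF-FOXO1, and at 363, 381 and 2.93 CPM in SRF-ICA1L. It was at 188 and 1.87 CPM in SRF-PDGFRB, and at 558, 1207 and 2.14 CPM in SRF-RELA. The same 7 libraries were low, at 3.70 CPM or less, and the gap to the next library was 50.7-fold. From the lowest to the highest library Fosb spanned 1435-fold and Fos 599-fold.

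Fosl1 encodes FRA-1, a FOS-class protein without a strong activation domain. It followed this split in some groups only. It was at 188, 158 and 300.2 CPM in pMSCV, so its highest pMSCV library was the one where Fos was lowest. Its 3 lowest libraries of the 17 were all low for Fos: SRF-FOXO1 replicates 1 and 3, at 67.6 and 99.1 CPM beside 345 CPM in replicate 2, and SRF-PDGFRB replicate 2, at 134 CPM beside 352 CPM in replicate 1. Over all 17 libraries it lay between 67.6 CPM (SRF-FOXO1 replicate 1) and 352 CPM (SRF-PDGFRB replicate 1), with a median of 188 CPM. Fosl2, which encodes FRA-2, lay between 77.3 CPM (SRF-RELA replicate 3) and 257 CPM (pMSCV replicate 2), with a median of 108 CPM. Its other high libraries were SRF-RELA replicate 2, at 250 CPM, and SRF-ICA1L replicate 2, at 177 CPM.

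In the JUN class, Junb varied most. Junb, which pairs with FOS proteins and is often counted as a counterweight to Jun, was at 326, 1354 and 134 CPM in pMSCV, and at 548, 922 and 131 CPM in SRF. It was at 262, 1943 and 269 CPM in SRF-FOXO1, and at 561, 1747 and 206 CPM in SRF-ICA1L. It was at 2105 and 156 CPM in SRF-PDGFRB, and at 962, 2443 and 233 CPM in SRF-RELA. In SRF-RELA, SRF-ICA1L, SRF and pMSCV alike, the replicate 3 library was lower than its replicate 1, which was lower than its replicate 2. Jun, the founding member of its class, ran from 87.4 CPM (SRF-FOXO1 replicate 1) to 690 CPM (pMSCV replicate 2), with a median of 280 CPM. Jund, the member usually described as expressed without stimulation, ran from 25.6 CPM (SRF-FOXO1 replicate 3) to 160 CPM (pMSCV replicate 2), with a median of 59.8 CPM. The 2 lowest libraries for both Jun and Jund were SRF-FOXO1 replicates 1 and 3.

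Atf3, a stress-induced factor that often represses transcription, was at 68.4, 180 and 11.96 CPM in pMSCV, and at 49.8, 49.2 and 7.71 CPM in SRF. It was at 8.11, 50.2 and 1.03 CPM in SRF-FOXO1, and at 22.1, 45.7 and 6.09 CPM in SRF-ICA1L. It was at 28.6 and 10.4 CPM in SRF-PDGFRB, and at 42.4, 66.6 and 8.35 CPM in SRF-RELA. The 7 libraries low for Fos were also the 7 lowest for Atf3, at 11.96 CPM or less against at least 22.1 CPM in the other 10.

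**Figure D1:**
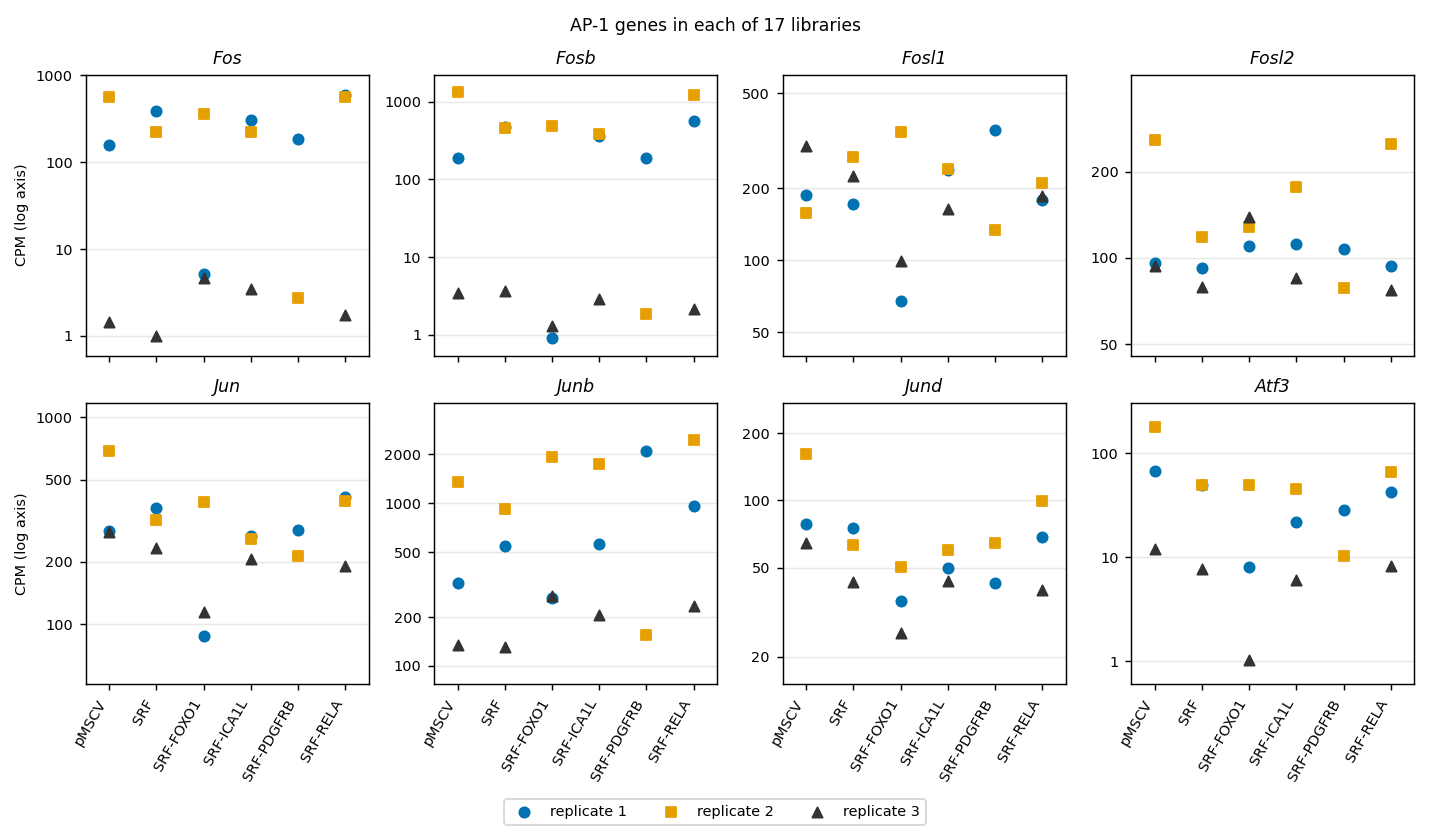
Level of each AP-1 gene (CPM, log axis) in every library, by group, with a circle, square or triangle for replicate number 1, 2 or 3. Fos and Fosb sit at 5.14 CPM or less in 7 libraries and at 159 CPM or more in the other 10, while Fosl1 has no gap of that size, its 3 lowest libraries being SRF-FOXO1 replicates 1 and 3 and SRF-PDGFRB replicate 2.

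Levels were also compared between genes per length, as CPM per kilobase of annotated exon (RPKM). The low libraries had a different FOS class make-up. In the number 3 libraries of SRF-RELA, SRF-ICA1L, SRF and pMSCV, Fosl1 held 88.3% to 93.1% of the summed FOS class RPKM, and Fos with Fosb held 0.743% to 2.11%. In the number 1 libraries of these 4 groups Fos and Fosb together held 48.8% to 78.0%, and in the number 2 libraries 53.2% to 81.2%. Fosl1 led the class in 12 of the 17 libraries and Fos in the other 5. Junb led the JUN class in 15 libraries, and Jun led it in pMSCV replicate 3 and SRF replicate 3. Summed JUN class RPKM was 156 to 185 in the 4 number 3 libraries, 277 to 589 in the number 1 libraries and 539 to 1245 in the number 2 libraries. Number 3 lay wholly below the others, and numbers 1 and 2 overlapped.

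The first comparison asked whether the spread of these genes followed replicate number or group. It used 12 libraries, those of SRF-RELA, SRF-ICA1L, SRF and pMSCV, because across all genes libraries with the same number deviated together from their group means in these groups (r of 0.392 to 0.789 in 18 pairs) and those with different numbers did not (0.114 at most in 36 pairs). These points share the same genes and the 12 libraries were picked on them, so the values are a description. SRF-FOXO1 was left out because its libraries did not pair in this way with 3 of the groups (−0.195 to 0.501), and SRF-PDGFRB because it had no number 3.

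Replicate number held most of the variance of these genes. Its share of the sum of squares of log2 CPM (prior count 2) was 97.1% for Fosb, 96.7% for Fos, 87.6% for Junb, 82.7% for Atf3 and 77.5% for Fosl2. It was 47.5% for Jund, 44.7% for Jun and 6.69% for Fosl1. The share held by group was 0.382% for Fosb and 0.889% for Fos, and was highest for Jund, at 35.5%, and Jun, at 22.2%. Over the 8 genes the median was 80.1% by number and 9.60% by group, beside 49.6% and 19.5% over all 15062 genes. Labels unrelated to a gene would hold 18.2% by number and 27.3% by group, and both shares of Fosl1 were below these. The share by number was the larger for all 8, though barely for Fosl1 (6.69% against 6.47% by group), and for 72.3% of all genes. With SRF-FOXO1 added (15 libraries) the medians were 64.5% and 16.8%, and 5 of the 8 had the larger share by number, as did 50.6% of all genes. Without the number 3 libraries the medians over the 8 genes were 19.9% by number and 43.6% by group. In that smaller layout unrelated labels hold more by group than 27.3% and less by number than 18.2%. The 43.6% therefore does not show that group held more than unrelated labels would.

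**Figure D2:**
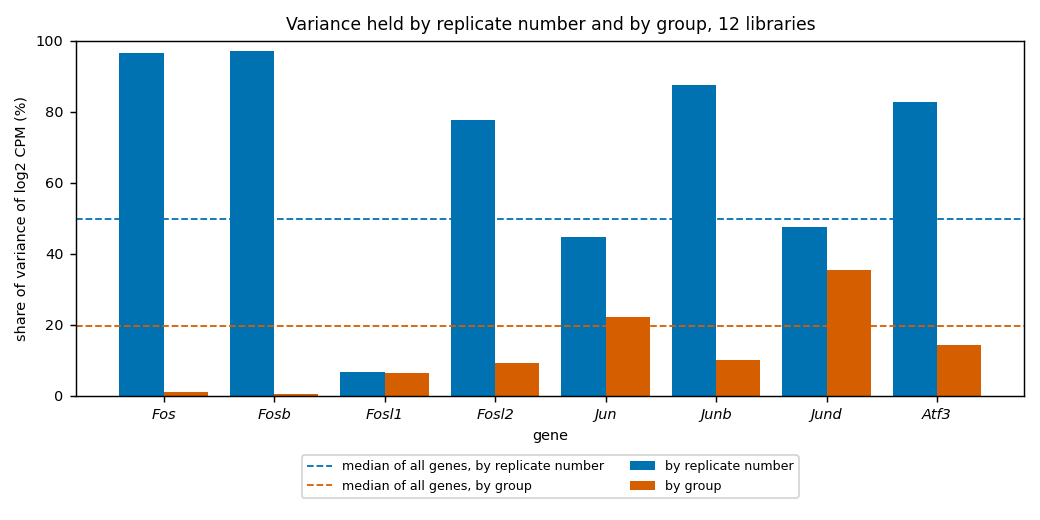
Share of the variance of log2 CPM (percent, from 0 to 100) held by replicate number and by group for each AP-1 gene in 12 libraries; dashed lines are the medians over all genes. Fos and Fosb reach 96.7% and 97.1% by number, and Fosl1 has 6.69% by number and 6.47% by group.

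In a test of replicate number with group in the same fit (edgeR quasi-likelihood, adjusted over all genes), 7 of the 8 genes passed an adjusted p of 0.05, where 52.0% of the 14639 genes tested did. The edgeR adjusted p was 3.31e-05 for Junb, 8.48e-05 for Atf3, 0.000125 for Fosb and 0.000155 for Fos. It was 0.00132 for Fosl2, 0.00807 for Jund, 0.0384 for Jun and 0.681 for Fosl1. A share of 52.0% means that passing this test was common among all genes. The 12 libraries were picked because those with the same number deviated together over all genes. That choice favours this test, so its p values are a description. With the 15 libraries Jun no longer passed and 6 genes did, beside 29.0% of all genes. With all 17 libraries 5 genes passed (Fos, Fosb, Junb, Jund and Atf3), beside 8.17%. These fits take the numbers as labelled, although SRF-FOXO1 replicate 1 and SRF-PDGFRB replicate 2 were low for Fos and Fosb like the libraries numbered 3, and the labels do not say what a number marks.

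Number 3 was set against the mean of numbers 1 and 2, a contrast chosen after the values had been seen. Against the mean of numbers 1 and 2, Fos was lower in number 3 by a log2 difference of −7.57 (SE 0.58) and Fosb by −7.47 (SE 0.56). Atf3 differed by −2.75 (SE 0.21), Junb by −2.44 (SE 0.18), Fosl2 and Jund each by −0.72 (SE 0.16 and 0.17) and Jun by −0.67 (SE 0.20). These 7 passed at edgeR adjusted p values from 3.47e-05 (Junb) to 0.0313 (Jun), and Fosl1 differed by 0.09 (SE 0.19, adjusted p = 0.735). Of all genes tested 31.0% passed, 14.7% of them lower and 16.3% higher in number 3. The 4 number 3 libraries lay wholly below the other 8 for Fos, Fosb, Junb and Atf3, which held for 5.73% of all genes. For Fosl2, Jun and Jund the 2 sets of libraries overlapped. Fosl2 stood apart in number 2, with means of 98.5, 200.4 and 83.7 CPM in numbers 1, 2 and 3.

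Number 2 was above number 1 in the fit for all 8 genes, and the difference passed for Junb (log2 1.44, SE 0.18, edgeR adjusted p = 0.00143), Fosl2 (0.98, SE 0.18, adjusted p = 0.00462) and Atf3 (0.79, SE 0.21, adjusted p = 0.0180). Higher in number 2 were 18.3% of all genes, and 35.7% differed in either direction. Fos, at 0.11 (SE 0.44), and Fosb, at 0.99 (SE 0.44), did not pass.

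The genes also tracked each other to different degrees across the 17 libraries, which share their groups and numbers. Pearson's r of log2 CPM was 0.97 between Fos and Fosb, 0.88 between Fos and Junb and 0.89 between Fosb and Atf3. Jund followed Jun (0.83) and Atf3 (0.85) more than Junb (0.40). Fosl1 reached 0.59 with Jun and 0.02 with Fosl2. The gap between low and high libraries weighs on the r values of Fos and Fosb. By rank (Spearman's rho) the values were 0.85 between Fos and Fosb, 0.84 between Fos and Junb and 0.83 between Fosb and Atf3. The member closest to Fosb by rank was Jun (0.94). Among 10022 genes with a symbol and at least 5 CPM on average, the genes most like Fos and Fosb were Apol8, Ppp1r15a and Klf6 (r of 0.944 to 0.979). Those most like Junb were Ier2, Ccnl1 and Nr4a3 (0.973 to 0.979), and those most like Atf3 were Csrnp1, Plk3 and Hes1 (0.941 to 0.961). Fosl2 was most like Adamts10, Ccnl2 and Srsf5, and Fosl1 most like Ppp1r10, Dyrk3 and Aoc2. For Jun the nearest were Sik1, Klf2 and Hbegf, and for Jund Sik1, Klf2 and Zfp568.

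The series compares the lines, so each gene was next tested between groups. With all 17 libraries in 1 fit and group as the only term, none of the 8 genes passed in any of the 15 comparisons of 2 groups. Few genes passed in these comparisons at all. The share of all genes called was 0.710% for SRF-FOXO1 against pMSCV (0.359% higher), 0.0199% for SRF-PDGFRB, 0.00664% for SRF, and 0 for SRF-ICA1L and SRF-RELA. Against SRF it was 0.00664% for SRF-FOXO1, 0.0531% for SRF-PDGFRB (0.0465% higher), 0.00664% for SRF-RELA and 0 for SRF-ICA1L. Between fusions it was at most 0.0332%, and 0.0266% for SRF-FOXO1 against SRF-PDGFRB, all lower. A joint test for any group difference called 0 of the 8 genes by edgeR and by DESeq2, beside 0.0797% of all genes by edgeR and 4.22% by DESeq2. At an unadjusted p under 0.05, edgeR's test had 1 of them, Jund, at an adjusted p of 0.543.

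For Fos the group means overlapped widely. They were 241 ± 289 CPM in pMSCV, 390.1 ± 337 in SRF-RELA, 203 ± 194 in SRF, 177 ± 156 for SRF-ICA1L and 124 ± 206 for SRF-FOXO1 (SD, n = 3 each), and 94.4 ± 130 CPM in SRF-PDGFRB (SD, n = 2). The order from SRF-RELA through pMSCV, SRF, SRF-ICA1L and SRF-FOXO1 to SRF-PDGFRB had no pair of neighbours that differed beyond this spread. Although Srf was raised in SRF, its target Fos did not pass against pMSCV (log2 fold change −0.24, SE 2.21, edgeR adjusted p = 0.997). In the fit with replicate number, which had 12 libraries, the same difference was −0.24 with an SE of 0.55 (adjusted p = 0.852). Fosb differed by −0.70 (SE 2.39) and Junb by −0.18 (SE 1.198) in the fit by group. Intervals of this width do not show that the lines had equal levels.

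With replicate number in the fit of 12 libraries, 2 genes differed by group, and in the fit of all 17 libraries with number none did. Picking the 12 libraries on how their numbers paired lowers the spread left over in their fit. The choice thus favours its tests of group as well, and their p values, here and below, are a description. Beside number, the test for any difference among these 4 groups called Atf3 (edgeR adjusted p = 0.0258) and Junb (adjusted p = 0.0371), 2 of the 8 where 3.50% of all genes passed. With all 17 libraries the test called 0 of the 8 (0.365% of all genes), and DESeq2 on the 12 called 3, Jund being the other (10.1%). With 1 of the 12 libraries left out at a time, between 0 and 2 of the genes passed. Neither passed without pMSCV replicate 1, SRF replicate 3, SRF-ICA1L replicate 1 or 2, or any one SRF-RELA library. Atf3 alone passed without pMSCV replicate 3 or SRF-ICA1L replicate 3.

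Junb was higher in SRF-RELA than in pMSCV within each number, by 2.95-fold in number 1, 1.80-fold in number 2 and 1.74-fold in number 3. Being higher in all 3 numbers held for 20.4% of all genes. The log2 fold change was 1.07 (SE 0.21, edgeR adjusted p = 0.0161) with number in the fit, where 6.48% of all genes passed, and 1.004 (SE 1.21, adjusted p = 0.930) with group alone. With number added to all 17 libraries it was 1.04 and did not pass (adjusted p = 0.667). It lay between 0.84 and 1.25 with any one library of the 2 groups left out, and passed in 3 of these 6 fits. The 3 in which it did not pass lacked pMSCV replicate 1 (adjusted p = 0.0713), SRF-RELA replicate 1 (0.0847) or SRF-RELA replicate 2 (0.0657). Against SRF, Junb in SRF-RELA differed by 1.004 (SE 0.21, adjusted p = 0.0599), beside 0.656% of genes called. In SRF-ICA1L Junb was above pMSCV in 3 of 3 numbers, as were 19.0% of all genes, at a log2 fold change of 0.58 (SE 0.21) that did not pass (adjusted p = 0.167).

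Atf3 was lower in SRF-ICA1L than in pMSCV within each number, at 0.324, 0.254 and 0.513 of the pMSCV level in numbers 1, 2 and 3. Being lower in all 3 numbers held for 18.1% of all genes. The log2 fold change was −1.57 (SE 0.25, edgeR adjusted p = 0.0133) with number in the fit, where 2.99% of all genes passed, and −1.82 (SE 1.23, adjusted p = 0.905) with group alone. With number added to all 17 libraries it was −1.54 and did not pass (adjusted p = 0.441). It lay between −1.77 and −1.21 with any one library of the 2 groups left out, and passed in 4 of these 6 fits, the exceptions being without SRF-ICA1L replicate 1 (adjusted p = 0.0752) or replicate 2 (0.0866). Atf3 was below pMSCV in 3 of 3 numbers in SRF and SRF-RELA, which held for 17.2% and 20.3% of all genes. Those differences, −1.0002 (SE 0.25, adjusted p = 0.187) and −0.92 (SE 0.25, adjusted p = 0.0537), did not pass. Between SRF-ICA1L and SRF-RELA, Atf3 differed by −0.65 (SE 0.25) and Junb by −0.49 (SE 0.21), and neither passed (adjusted p = 0.9998 for both, 0 of all genes called). Muscle genes moved with these groups too. In the same fit 5 of 6 myoblast markers were lower in SRF-RELA than in pMSCV, beside 3.29% of all genes. In SRF-ICA1L 3 of 6 were lower, beside 1.65% of all genes. Of 9 muscle differentiation markers, 3 passed lower in SRF-RELA (Myog at −3.04, Myh3 at −3.11 and Mymk at −2.53) and 2 in SRF-ICA1L (Myog at −2.44 and Myh3 at −2.67). The other 6 in SRF-RELA ran from −1.77 (Ttn) to 0.93 (Actc1) and did not pass. Their part in the Junb and Atf3 values was not tested.

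**Figure D3:**
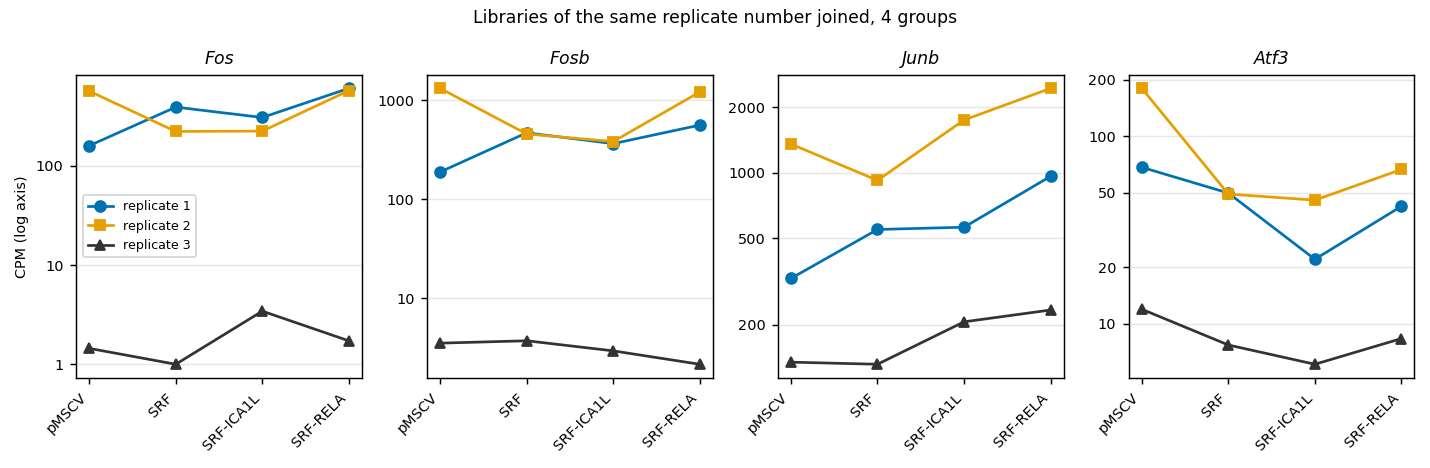
Level (CPM, log axis) of Fos, Fosb, Junb and Atf3 in 4 groups, with libraries of the same replicate number joined by a line. The lines for number 3 lie below the others, the Junb lines end higher in SRF-RELA than in pMSCV, and the Atf3 lines are lower in SRF-ICA1L than in pMSCV.

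Jund was the JUN-class gene with the most even group difference. It was at 78.8, 160 and 64.2 CPM in pMSCV and at 35.5, 50.1 and 25.6 CPM in SRF-FOXO1, so these 2 groups did not overlap; this held, in the lower direction, for 11.6% of all genes. The log2 fold change was −1.45 (SE 0.39, edgeR adjusted p = 0.0706) and did not pass. DESeq2 called it (−1.45, adjusted p = 0.00861, 9.05% of genes called), as did edgeR with replicate number added to all 17 libraries (−1.40, adjusted p = 0.0127, 6.78%). The latter fit also called Atf3 in SRF-FOXO1 (−2.44, adjusted p = 0.0384), which was at −2.14 (SE 1.24, adjusted p = 0.345) with group alone, but SRF-FOXO1 numbers did not pair with those of pMSCV. Summed myoblast markers were at 128 to 168 CPM in SRF-FOXO1 and 911 to 1267 CPM in pMSCV, and fibroblast markers at 83.0 to 1815 and 39.6 to 487 CPM; their part in the Jund value was not tested. None of these 6 and 5 markers passed singly by edgeR. Without pMSCV replicate 2, the highest library for Jund, the Jund value was −0.95 (edgeR adjusted p = 0.126). Jun in SRF-FOXO1 was at −1.08 (SE 0.51, adjusted p = 0.243), and at −2.05 (adjusted p = 0.0429, 1.29% of genes called) without SRF-FOXO1 replicate 2.

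In SRF-ICA1L, Atf3 lay between 6.09 and 45.7 CPM and overlapped pMSCV, whereas Jund and Jun lay wholly below it, 2 of the 8 genes beside 5.54% of all genes. Jund was at 49.98, 59.8 and 43.5 CPM there, and its difference from pMSCV was −0.99 (SE 0.39, edgeR adjusted p = 0.729) with group alone and −0.88 (SE 0.22, adjusted p = 0.0583) with number. Jun was at 267, 257 and 207 CPM, and its difference was −0.69 (SE 0.27, adjusted p = 0.199) with number. In SRF-PDGFRB, where 2 libraries lay on either side of the Fos gap, the 8 log2 fold changes against pMSCV ran from −2.40 (Fosb, SE 2.93) to 0.90 (Junb, SE 1.32). Jund was at 42.6 and 64.4 CPM there, overlapping pMSCV only at its lowest library, with a log2 fold change of −0.92 (SE 0.44, adjusted p = 0.662). Comparisons with pMSCV share its 3 libraries.

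**Figure D4:**
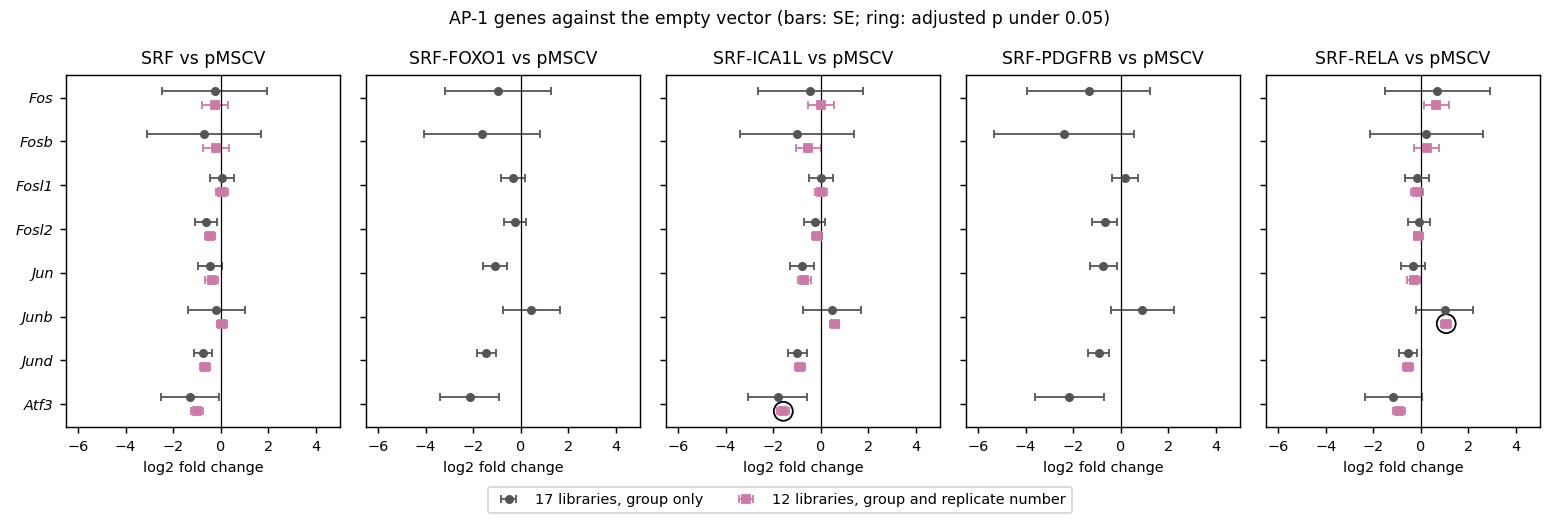
Log2 fold change against pMSCV (x axis) of each AP-1 gene (y axis) with its SE, from the fit of 17 libraries by group and, where it exists, the fit of 12 libraries by group and replicate number. Rings mark the 2 values that passed, Atf3 in SRF-ICA1L at −1.57 and Junb in SRF-RELA at 1.07.

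Other immediate-early genes outside AP-1 moved with replicate number as well. Of 16 listed, all in the table, 14 passed the test of number, beside 52.0% of all genes. Of the 16, 13 were lower in number 3, beside 14.7% of all genes. Their median log2 difference was −1.75, beside 0.01 over all genes. Egr1, a zinc-finger factor induced through the same serum route as Fos, differed by −3.42 (SE 0.20, edgeR adjusted p = 1.86e-05). Its number 3 libraries held 84.7 to 215 CPM and the other 8 held 520 to 3150 CPM. Nr4a1, an orphan nuclear receptor, differed by −5.13 (SE 0.35, adjusted p = 3.47e-05). Zfp36, which promotes decay of short-lived transcripts, differed by −3.11, and the phosphatase gene Dusp1 by −2.12. For 10 of the 16 the number 3 libraries lay wholly below the rest, which held for 5.73% of all genes. Myc (0.09, SE 0.11), Ccn2 (0.85, SE 0.53) and Arc (−0.42, SE 0.22), named after their values were seen, did not pass. With number in the fit, Egr1 (1.24), Zfp36 (1.18) and Arc (1.17) passed higher in SRF-RELA than in pMSCV, as did 3.19% of all genes. Egr1 (1.03) also passed higher in SRF-ICA1L, as did 1.34% of all genes.

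**Figure D5:**
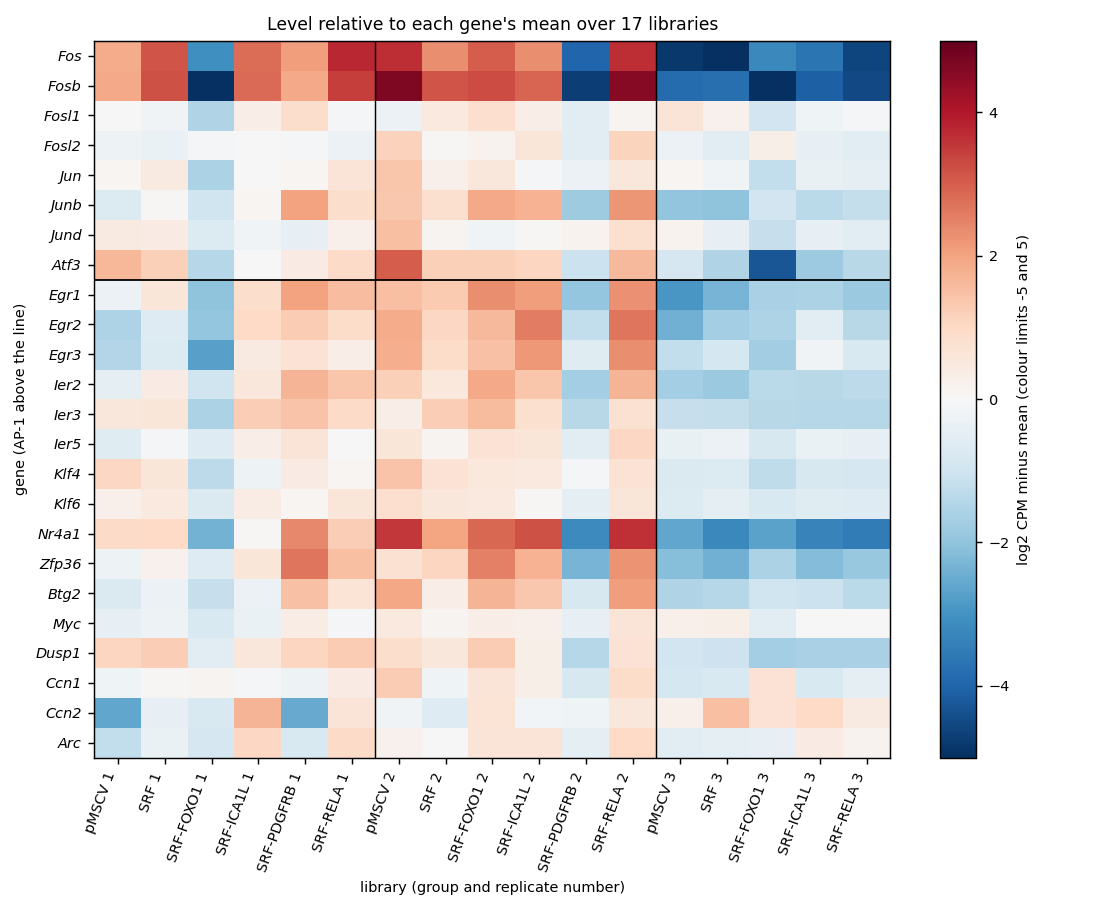
Level of the 8 AP-1 genes and 16 other immediate-early genes (rows) in 17 libraries ordered by replicate number (columns), as log2 CPM minus the gene's mean. Columns numbered 3, SRF-FOXO1 replicate 1 and SRF-PDGFRB replicate 2 are low for Fos and Fosb (at most 5.14 and 3.70 CPM).

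Of 12 other basic leucine zipper factors listed, 8 were in the table and 5 passed the test of number, near the 52.0% of all genes. Of the 8, 3 were lower in number 3, beside 14.7% of all genes. They were the small MAF genes Mafk (−1.09), Maff (−0.84) and Mafg (−0.25). Mafg did not pass the test of number itself (edgeR adjusted p = 0.05005). Atf7 was higher (0.38). Among 17 genes for kinases and factors upstream of AP-1, 8 passed the test of number, a share below the 52.0% of all genes, with 4 higher and 3 lower in number 3 where 16.3% and 14.7% of all genes were. The lower ones were Mapk3 (−0.63), which encodes the kinase ERK1, Mrtfb (−0.31) and Map2k1 (−0.30). The higher ones were the SRF cofactor gene Mrtfa (0.51), Elk3 (0.33), Map2k4 (0.33) and Creb1 (0.32). None of these 17 or of the 8 zipper factors passed for SRF-ICA1L or SRF-RELA against pMSCV with number in the fit.

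Genes commonly listed as AP-1 targets went both ways. Of 16 listed 14 were in the table. In number 3, 5 were lower and 3 higher, with a median of −0.10, beside 14.7% of all genes lower and 16.3% higher. The 3 higher were near the share of all genes. Hmox1, heme oxygenase, was lower (−2.15, SE 0.21), at 25.5 to 43.0 CPM in the 4 number 3 libraries against 62.4 to 356 CPM in the other 8. Timp1, an inhibitor of matrix proteases, was higher (1.36) and Ccnd1, cyclin D1, was higher (0.84). Lif (−1.19) and Hbegf (−0.75), both growth factor or cytokine genes, were lower. Il6, Mmp9 and Mmp13 also passed, but on few counts: in the number 3 libraries Il6 had 0 to 6 counts, Mmp13 had 2 to 7 and Mmp9 had 5 to 22.

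Other gene groups moved with replicate number beside the AP-1 genes, and their part in these results was not tested. Of all genes, 14.7% were lower and 16.3% higher in number 3. Of 10 genes of the integrated stress response, 7 were lower in number 3, among them Ppp1r15a (−2.32), Trib3 (−1.30) and Ddit3 (−0.82). Of 8 heat shock genes, 2 were lower and 2 higher. Of 8 cell cycle genes, 6 were higher in number 3 (median 0.74), and their summed level was 3094 to 3262 CPM in the 4 number 3 libraries against 980 to 2693 CPM in the other 8. Of 6 myoblast markers, 5 were higher in number 3, led by Pax7 (2.13) and Myod1 (1.60), with summed levels of 498 to 1267 CPM against 220 to 1108 CPM. Pax7 was also higher in number 2 than in number 1 (3.81, SE 0.42, edgeR adjusted p = 0.00114). Its 2.13 is therefore set against the mean of 2 unlike numbers. For Myod1 the difference between numbers 2 and 1 did not pass (−0.18). Of 9 muscle differentiation markers measured, Myog alone passed, higher (1.23), and of 5 fibroblast markers 1, Pdgfra, was lower (−0.86). Pdgfra, too, was higher in number 2 than in number 1 (1.47, SE 0.27, edgeR adjusted p = 0.00469), so its −0.86 has the same limit as Pax7. Of the 3 markers of other cell types, none passed in number 3 by edgeR, and their summed level there was 3.54 to 6.22 CPM.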

How the data were processed

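The deposited table held raw counts per gene in 17 libraries; every gene had at least 10 counts in at least 3 libraries. The submitters' processing notes name FastQC 0.11.8, Trimmomatic 0.39, HISAT2 2.12.1, featureCounts, Subread 2.0.0 and GRCm38; the annotation, and whether counting used the strand, are not given in the sources used here. Counts were scaled by TMM and tested with edgeR 4.0.16 (quasi-likelihood, robust, its filter for low counts; R 4.3.3), Benjamini-Hochberg adjusted over all genes. All 17 libraries entered 1 fit by group (15062 genes tested); 12 libraries entered 1 fit by group and replicate number (14639 genes). The biological coefficient of variation was 36.5% in the first and 18.5% in the second. All 8 genes passed both filters. The SE is the size of the log2 fold change over the square root of F. The number pairing was checked on deviations from group means, as the report gives; it comes from the data, since the labels give numbers without their meaning. The scripts were tested on simulated data with known changes. Exon lengths came from GENCODE M21 on GRCm38. The genes, gene lists and 12 libraries were chosen with earlier results of these data known. Named genes are the 8, Srf, list members that passed (or the 2 nearest), and 3 most alike per gene. DESeq2 1.42.0, upper-quartile scaling, other filters, other sets of libraries and leaving out single libraries were alternatives. Totals of 20901442 to 23543734 counts per library set the precision.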

Additional observations from a re-analysis of the deposited data

How the results depend on the processing

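With the replicate block (number as a term) on all 17 libraries, 2 AP-1 genes passed in SRF-FOXO1 against pMSCV and 0 in the other 14 comparisons; without it 0 passed in all 15. On the 12 libraries alone, 1 gene passed with the block in SRF-RELA and 1 in SRF-ICA1L against pMSCV, and 0 without it, so those 2 calls needed both the block and the 12 libraries. DESeq2 called 1 in SRF-FOXO1, and leaving out single libraries called 0 to 1 there. The count for group beside replicate number, 2, was 3 by DESeq2, 0 with all 17 libraries and 0 to 2 with single libraries left out. The count for replicate number, 7, stayed between 5 and 7. The median share of variance by number ran from 19.9% without replicate 3 to 81.6% without replicate 1, and by group from 12.7% without replicate 1 to 43.6% without replicate 3. With a number left out, unrelated labels hold more by group and less by number than in the 12 libraries.

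None of the 120 log2 fold changes passed in the fit by group, so staying below the threshold shows no stability. Of their 1496 alternative values, 6 passed and 25 changed sign by more than 1 SE. In all, the sign changed in 122 values of 65 fold changes. Counts over all genes moved more: for SRF-FOXO1 against pMSCV 107 became 0 to 1363, for any group difference 12 became 7 to 635, for group beside number 513 became 55 to 1520, and for replicate number 7616 became 1231 to 8364. SRF-ICA1L against pMSCV went from 0 to as many as 437 and SRF-RELA from 0 to 949, both with the replicate block in 12 libraries.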
